A study of Mus musculus with 6 samples.

Results

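The genes described are positional transcription factors outside the *Hox* clusters: every gene in a table of mouse embryonic fibroblast RNA whose symbol belongs to the *Tbx*, *Pitx*, *Meis*, *Pbx*, *Zic*, *Irx*, *Msx*, *Dlx*, *Six4* and its relatives, *Prrx*, *Lhx*, *Alx*, *Emx*, *Shox*, En, *Pax*, *Gata*, *Twist*, *Hand*, *Osr* or *Barx* families or is *Tcf21* or *Tcf15*. The rule found 78 of the 17092 genes in the table, and it used names only, not counts. Mouse embryonic fibroblasts (MEFs) are connective tissue cells that grow out of minced embryos, and their RNA was sequenced here in 3 libraries from WT and 3 from *Aff3ir-ORF2-/-* mice (KO below). *Aff3ir-ORF2-/-* mice are a global knockout of *Aff3ir*-ORF2, a product of the nested gene *Aff3ir*, made by injecting Cas9 mRNA and gRNAs into zygotes, and homozygotes came from heterozygous parents. The labels give no treatment, age or strain, nor how many embryos, or which parts of them, gave the cultures, so genotype and embryo of origin cannot be told apart and p-values measure only the spread between these libraries, which may be technical.

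Fibroblasts keep a record of where in the embryo they arose. Homeodomain, T-box, paired box, zinc finger and basic helix-loop-helix factors are switched on in fields along the head, trunk, limbs and viscera, and many stay on when the cells are grown in a dish. *Pitx1* and *Tbx4* mark the hindlimb and *Tbx5* the forelimb, *Prrx1* and *Twist1* mark limb and head mesenchyme, *Pax1* and *Pax9* mark the part of the somite that makes vertebrae, and *Gata4* and *Tbx20* mark the heart and lateral mesoderm. *Meis* and *Pbx* proteins are partners of *Hox* factors on DNA. The set of such factors that a culture expresses is thus a description of its positional make-up, and in bulk RNA a change in the number of cells of a kind and a change in RNA per cell cannot be told apart.

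The authors deposited estimated read counts per gene, which were rounded, and total counts ranged from 17435133 to 18252330 per library. Levels are given as CPM, the counts scaled to a common library size with TMM factors. The label of the cells was checked on marker lists: all 12 fibroblast markers were tested, and their summed level was 30474 to 30573 CPM in WT and 25435 to 32287 CPM in KO libraries. Of the 12, Lum (log2 fold change 2.17) and Pdgfrb (0.59) were called higher and Postn (-1.04) lower. All 19 tested macrophage markers were higher in KO MEFs, with a summed level of 24.9 to 28.1 CPM in WT and 1408 to 2392 CPM in KO libraries, and the part of these cells in the results below was not tested. The 4 Y-linked genes of the table summed to 101 to 109 CPM in WT and 133 to 174 CPM in KO libraries, so male cells were present in every library. *Aff3ir* has no row of its own under that name. *Aff3*, the gene that holds it, had 406, 406 and 418 counts in WT and 229, 186 and 209 in KO, and which of these reads are of *Aff3ir* cannot be told apart.

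Of the 78 factors, 58 had enough counts to be tested with edgeR's quasi-likelihood test over all 13075 testable genes. A gene was called at a p under 0.05 after Benjamini-Hochberg adjustment and a change of at least 1.5-fold. In KO MEFs 23 of the 58 were higher, which is 39.7%, where 14.2% of all tested genes were called higher. Only 2 were lower, *Emx2* and *Irx1*, which is 3.45%, where 7.27% of all tested genes were called lower. With at least 10 counts demanded of each library, 14 were higher and 2 lower, and the median given below was 0.22. Of the 58, 11 passed the count filter only through the KO libraries, so that a higher level there favoured their being tested, and 9 of the 11 were called higher. Of the 46 that also pass it on the WT libraries alone, 14 were called higher and 2 lower. The share over all genes that pass on WT alone was not taken, so these counts have no like measure beside them. Of the 58 factors, 33 were not called, of which 12 had an adjusted p under 0.05 with a smaller change, 8 of them positive and 4 negative. At any fold, 37 of the 58 had an adjusted p under 0.05, beside 56.8% of all tested genes. The median log2 fold change (log2FC, KO minus WT) of the 58 was 0.39, while that of all tested genes was 0.0056. After scaling, WT and KO ranges were separate for 35 factors that were higher and 9 that were lower in KO MEFs, where the shares over all tested genes were 33.3% and 32.7%. They overlapped for 14. All 25 called factors were among those without overlap. The 20 untested factors had at most 11 counts in any library, and 14 of them had 3 counts or fewer in every library.

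**Figure D1:**
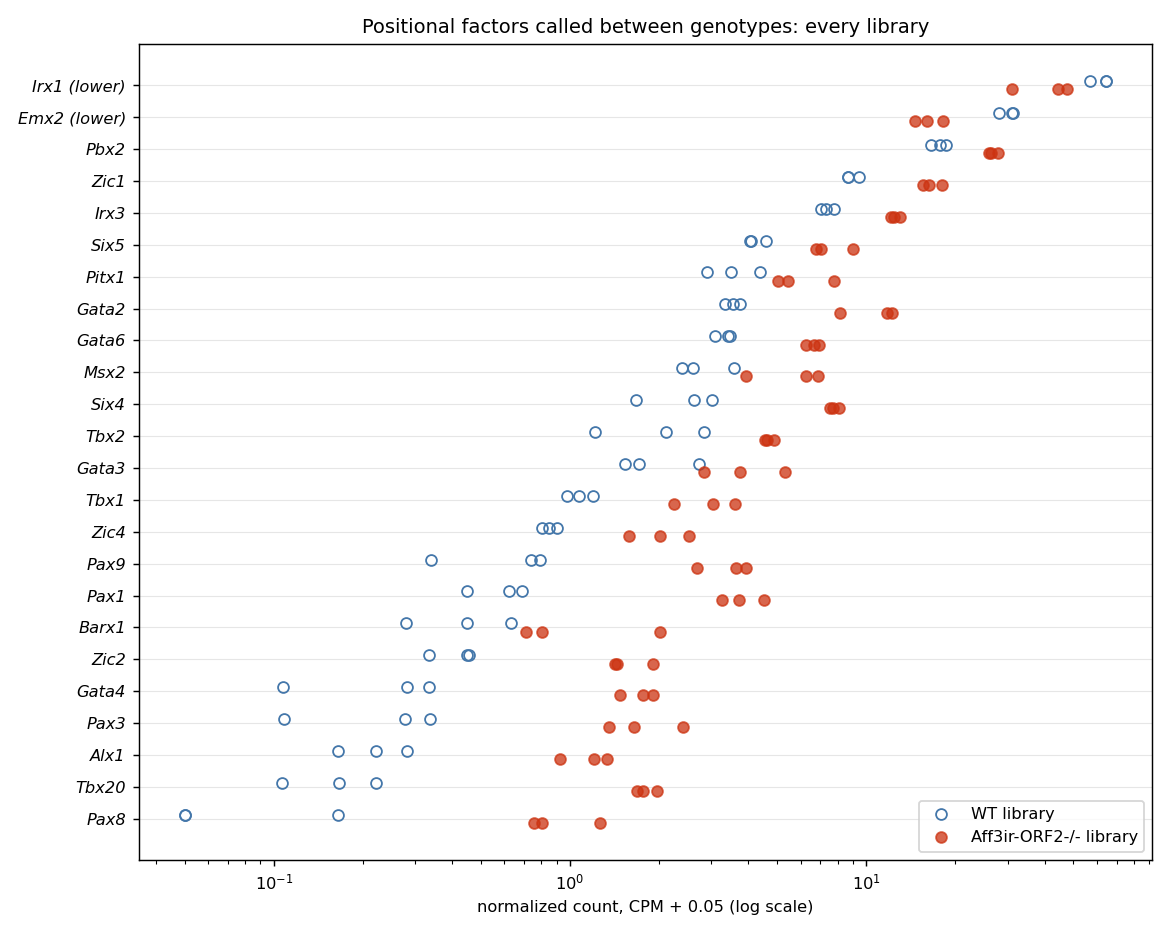
Normalized counts (CPM + 0.05, log axis) of 24 of the 25 called factors in each WT library (open circles) and each *Aff3ir-ORF2-/-* library (filled circles), sorted by the WT mean. The genotypes do not overlap for any of the 24, and only *Emx2* and *Irx1* lie lower in *Aff3ir-ORF2-/-* MEFs.

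The share of called factors differed with the level. Among the 18 tested factors with a mean under 2 CPM, 10 were called higher (55.6%) and 0 lower, beside 34.2% and 11.2% of all tested genes at that level. Of these 10, 8 passed the count filter only through the KO libraries (*Alx1*, *Barx1*, *Gata4*, *Pax3*, *Pax8*, *Pax9*, *Tbx20* and *Zic2*), so that the filter weighs on this share. Among the 19 with a mean of 2 to 10 CPM, 11 were higher (57.9%) and 0 lower, beside 28.9% and 8.67%. Among the 21 with a mean over 10 CPM, only *Pbx2* and *Zic1* were higher (9.52%), beside 7.1%, and *Emx2* and *Irx1* were lower (9.52%), beside 6.29%. The factors that WT MEFs expressed strongly were thus mostly outside the calls, and most called factors came from low levels, where all genes were called higher more often. The 8 factors with a log2FC over 2 had at most 13 counts in any WT library, and the precision of their values is set by those counts.

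**Figure D2:**
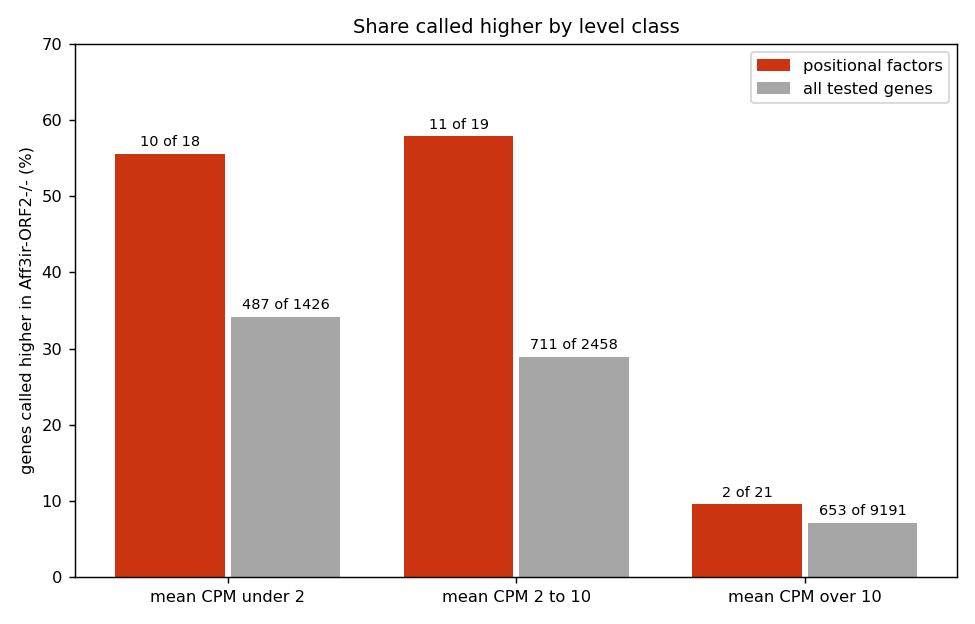
Percentage of genes called higher in *Aff3ir-ORF2-/-* MEFs by mean level over the 6 libraries, for the positional factors (red) and all tested genes (grey), with the counts over each bar. The share among factors is 55.6% under 2 CPM, 57.9% at 2 to 10 CPM and 9.52% over 10 CPM.

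To show where the most expressed and some of the most changed factors begin, the 250 bases upstream of their annotated start are given from RefSeq's GRCm38.p6 promoter table, 5' to 3' on the strand of the gene. For *Six4*, which has 2 rows in that table, the start listed first was used. The submitters' processing notes name the build mm8 for the counts, so these positions belong to the promoter table only. Capitals mark matches, on either strand, to any of these motifs, which can overlap each other: the TATA box written TATAAA, the box named for its letters CCAAT, the GC box written GGGCGG, the homeodomain core TAATTA, the core of *Meis* and related proteins TGACAG, and the core of *Gata* factors AGATAA. The E-box CANNTG, bound by basic helix-loop-helix factors, was searched too and is not capitalised. *Prrx1* is shown as the factor with the highest count, *Zic1* and *Zic4* as neighbours that were both higher, *Six4*, *Tbx20* and *Pax1* as others called higher, and *Emx2* as the factor that fell most.
*Prrx1*, chr1:163313651-163313900, minus strand: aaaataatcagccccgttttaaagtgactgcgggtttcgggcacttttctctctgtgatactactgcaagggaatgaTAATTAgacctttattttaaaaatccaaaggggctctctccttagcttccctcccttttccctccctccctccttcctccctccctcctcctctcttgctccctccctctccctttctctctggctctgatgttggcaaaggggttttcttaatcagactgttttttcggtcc
*Zic1*, chr9:91365769-91366018, minus strand: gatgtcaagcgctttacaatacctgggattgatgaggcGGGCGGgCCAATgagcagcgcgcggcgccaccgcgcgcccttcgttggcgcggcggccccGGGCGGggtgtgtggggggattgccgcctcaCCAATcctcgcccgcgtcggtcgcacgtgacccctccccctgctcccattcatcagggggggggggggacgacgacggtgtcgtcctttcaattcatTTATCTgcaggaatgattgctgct
*Zic4*, chr9:91368722-91368971, plus strand: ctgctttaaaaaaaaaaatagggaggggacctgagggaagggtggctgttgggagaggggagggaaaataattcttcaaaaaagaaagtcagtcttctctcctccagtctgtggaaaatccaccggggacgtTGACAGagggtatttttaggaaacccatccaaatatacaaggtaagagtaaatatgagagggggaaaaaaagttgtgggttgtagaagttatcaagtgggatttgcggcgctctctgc
*Six4*, chr12:73113246-73113495, minus strand: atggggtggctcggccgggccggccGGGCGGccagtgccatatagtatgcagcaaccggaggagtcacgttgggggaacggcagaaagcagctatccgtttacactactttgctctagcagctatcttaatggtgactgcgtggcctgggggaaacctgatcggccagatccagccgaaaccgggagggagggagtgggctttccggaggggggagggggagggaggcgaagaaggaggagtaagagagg
*Tbx20*, chr9:24774304-24774553, minus strand: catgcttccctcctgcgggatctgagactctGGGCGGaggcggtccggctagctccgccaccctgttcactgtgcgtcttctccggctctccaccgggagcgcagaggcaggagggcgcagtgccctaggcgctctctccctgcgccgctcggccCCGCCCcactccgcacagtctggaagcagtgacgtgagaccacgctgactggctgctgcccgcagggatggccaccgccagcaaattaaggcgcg
*Pax1*, chr2:147364744-147364993, plus strand: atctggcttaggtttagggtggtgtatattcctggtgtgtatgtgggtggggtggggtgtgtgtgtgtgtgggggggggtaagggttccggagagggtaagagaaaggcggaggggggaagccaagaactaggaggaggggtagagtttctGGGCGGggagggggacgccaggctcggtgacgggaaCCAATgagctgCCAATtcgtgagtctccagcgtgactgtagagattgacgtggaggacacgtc
*Emx2*, chr19:59458440-59458689, plus strand: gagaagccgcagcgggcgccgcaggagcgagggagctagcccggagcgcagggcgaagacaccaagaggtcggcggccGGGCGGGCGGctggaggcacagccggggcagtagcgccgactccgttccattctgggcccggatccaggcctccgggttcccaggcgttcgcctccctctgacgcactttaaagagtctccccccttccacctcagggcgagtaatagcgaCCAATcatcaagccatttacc

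These upstream regions are of unlike kinds. That of *Zic1* holds 27 CpG dinucleotides and is 66% G and C, while that of its neighbour *Zic4* holds 4 and is 44.4% G and C. Those of *Tbx20* and *Emx2* hold 22 and 24 CpG, and that of *Prrx1* holds 4. Of the 78 factors, 52 had a row in the promoter table, with a median of 15 CpG, the same as the median of 15 over the 13394 promoters of tested genes. A GC box lay in 12 of the 15 regions of factors that were higher and in 31 of the 52, against 32.7% of all 32851 promoters and 56.7% of those of tested genes. A TATA box lay in none of the 15 and in 5 of the 52, against 12.4% of all promoters and 6.55% of those of tested genes. The homeodomain core lay in 5 of the 52 (4.84% of all and 2.39% of tested), the *Meis* core in 9 (15.9% and 13.9%), the *Gata* core in 7 (9.99% and 5.66%), the CCAAT box in 23 (33.8% and 35.5%) and the E-box in 20 (66.2% and 57.4%). A match describes letters in the window and is not a binding site.

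The factors of limb bud and body wall mesenchyme made up the largest group. All 29 were tested, 27 of them passing the count filter on the WT libraries alone, with 5 higher, 1 lower and a median log2FC of 0.16. These counts are close to the 14.2% higher and 7.27% lower of all tested genes. *Prrx1* (gene ID 18933), a paired-related homeodomain factor of limb and head mesenchyme, had 8655, 8696 and 9043 counts in WT against 11299, 10465 and 11909 in KO. Every KO library was above every WT library, yet the change was small, from 505 ± 11.7 to 610 ± 44.5 CPM (SD, n = 3), a log2FC of 0.27 (SE 0.06, adjusted p = 0.00266). *Twist2*, a basic helix-loop-helix factor of mesenchyme, was counted 1675, 1717 and 1587 times in WT and 1763, 1936 and 1754 times in KO libraries. Its levels overlapped between the genotypes, with a log2FC of 0.05 (SE 0.05, adjusted p = 0.403). Its relative *Twist1* had 621, 630 and 563 counts in WT and 565, 593 and 578 in KO. After scaling all 3 KO libraries lay below WT, but the test was not passed (log2FC -0.14, SE 0.06, adjusted p = 0.0775). Together the 78 factors took 1316, 1307 and 1310 CPM in WT and 1471, 1409 and 1510 CPM in KO, and 814.3, 812.8 and 792.8 against 850.5, 848.1 and 861.6 CPM when *Prrx1* is left out. Per kilobase of the longest GENCODE M21 transcript, *Prrx1* was the most abundant factor in both genotypes, at 77.3 CPM per kb in WT and 93.5 in KO MEFs. *Twist2* was next at 37.7 and 39.1 CPM per kb. In WT these were followed by *Irx1* at 26.1, *Prrx2* at 22.3, *Twist1* at 21.3 and *Tbx15* at 20.5 CPM per kb, and *Irx1* moved from the third place to the 6th in KO MEFs, at 17.2 CPM per kb. *Prrx2*, *Twist1* and *Tbx15* are close in that order, and the transcript length behind the counts is not known, so that their places are not told apart here.

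The factors that distinguish forelimb from hindlimb were all present in both genotypes. *Tbx5*, which starts the forelimb, was counted 63, 65 and 81 times in WT and 99, 91 and 57 times in KO libraries. The ranges overlapped, with KO replicate 3 below every WT library, and the log2FC was 0.16 (SE 0.21, adjusted p = 0.538). Without KO replicate 1 the log2FC of *Tbx5* was -0.0034. *Tbx4*, which acts in the hindlimb and the lung, was counted 94, 90 and 101 times in WT and 112, 137 and 154 times in KO libraries, without overlap but below the 1.5-fold threshold (log2FC 0.42, SE 0.14, adjusted p = 0.0282). *Pitx1*, which gives the hindlimb its identity, was counted 49, 76 and 60 times in WT and 98, 93 and 142 times in KO libraries. It was higher in all 3 KO libraries (log2FC 0.77, SE 0.21, adjusted p = 0.0122). The call of *Pitx1* was lost without WT replicate 1 (log2FC 0.64, adjusted p = 0.0539) and without KO replicate 3 (0.55, adjusted p = 0.0369). The cultures of both genotypes thus held transcripts of forelimb and of hindlimb factors.

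*Tbx2* and *Tbx3*, related repressors of limb, heart and mammary development, were not called alike: *Tbx2* passed and *Tbx3* did not. *Tbx2* was counted 20, 49 and 36 times in WT and 88, 84 and 84 times in KO libraries, with a log2FC of 1.21 (SE 0.25, adjusted p = 0.00272). All 3 KO libraries lay above the WT libraries, among which replicate 1 was the lowest. *Tbx3* was counted 327, 323 and 318 times in WT and 352, 349 and 379 times in KO libraries, and after scaling the genotypes overlapped (log2FC 0.08, SE 0.07, adjusted p = 0.347). The difference between *Tbx2* and *Tbx3* was not tested. *Tbx15* and *Tbx18* act in limb and body wall mesenchyme. *Tbx15* had 1282, 1296 and 1245 counts in WT against 1440, 1685 and 1424, and *Tbx18* had 235, 262 and 248 against 292, 287 and 281. KO libraries were higher for both by little, with log2FCs of 0.17 (SE 0.06, adjusted p = 0.0386) and 0.13 (SE 0.08, adjusted p = 0.168), neither of them past the fold threshold. *Msx2*, a homeodomain repressor in limb bud and skull, was counted 61, 45 and 41 times in WT and 113, 72 and 125 times in KO libraries. Its log2FC was 1.00 (SE 0.24, adjusted p = 0.00669), while *Msx1* was at 20, 15 and 19 against 18, 24 and 22 counts, with overlapping ranges (log2FC 0.17, adjusted p = 0.61).

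Both factors called lower were well expressed. *Emx2*, a homeodomain factor of the scapula, the urogenital system and the cortex, was counted 536, 548 and 489 times in WT and 330, 299 and 268 times in KO libraries. The libraries of the genotypes lay well apart, at 30.1 ± 1.81 and 16.2 ± 1.77 CPM (SD, n = 3), a log2FC of -0.89 (SE 0.09, adjusted p = 2.94e-05). *Emx2* kept its call under every other scaling, filter and tool and with any library left out, though its change was under 2-fold. *Irx1*, an Iroquois homeodomain factor, was counted 1111, 1136 and 995 times in WT and 809, 884 and 567 times in KO libraries, with replicate 3 the lowest. Its log2FC of -0.60 (SE 0.16, adjusted p = 0.0167) was near the threshold, and its call was lost without WT replicate 1 (log2FC -0.57, adjusted p = 0.0538), without WT replicate 2 (-0.57, adjusted p = 0.0505), without KO replicate 3 (-0.43, adjusted p = 8.05e-04) and under 2 other scalings. *En1*, which marks ventral limb ectoderm and a lineage of skin fibroblasts, and *Shox2*, a factor of the upper limb, were also lower in every KO library than in every WT library, with changes under 1.5-fold. *En1* had 290, 298 and 264 counts in WT against 194, 225 and 214, or 16.3 ± 1.03 and 11.5 ± 0.732 CPM (SD, n = 3, log2FC -0.51, SE 0.09, adjusted p = 8.83e-04). *Shox2* had 534, 497 and 540 against 393, 480 and 348, or 30.0 ± 1.54 and 22.1 ± 3.43 CPM (log2FC -0.44, SE 0.10, adjusted p = 0.00543).

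Among the *Meis* and *Pbx* partners of *Hox* factors, all 7 were tested and 1 was called. Of all tested genes 21.4% were called in either direction, so this count does not set the partners apart. *Pbx2* was counted 285, 311 and 325 times in WT and 478, 484 and 511 times in KO libraries. It was higher in each of them, at 1.52-fold (log2FC 0.60, SE 0.07, adjusted p = 7.96e-05), just over the fold threshold, and fell below it without WT replicate 1 (0.56, adjusted p = 9.67e-04) or without KO replicate 3 (0.57, adjusted p = 2.71e-04). *Pbx3* had 336, 362 and 363 against 328, 358 and 357 counts (log2FC -0.10, adjusted p = 0.226). *Pbx4* rested on 8 to 19 counts a library (log2FC 0.67, adjusted p = 0.0959). *Meis1* had 357, 348 and 355 counts in WT against 396, 387 and 381 (log2FC 0.06, adjusted p = 0.465). *Meis2* had 481, 491 and 511 against 602, 634 and 597 (0.23, adjusted p = 0.00678), and *Meis3* 410, 461 and 417 against 389, 391 and 383 (-0.22, adjusted p = 0.0158). *Meis2* and *Meis3* thus passed the p threshold in opposite directions, with changes under 1.5-fold. At any fold, 56.8% of all tested genes passed it.

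**Figure D3:**
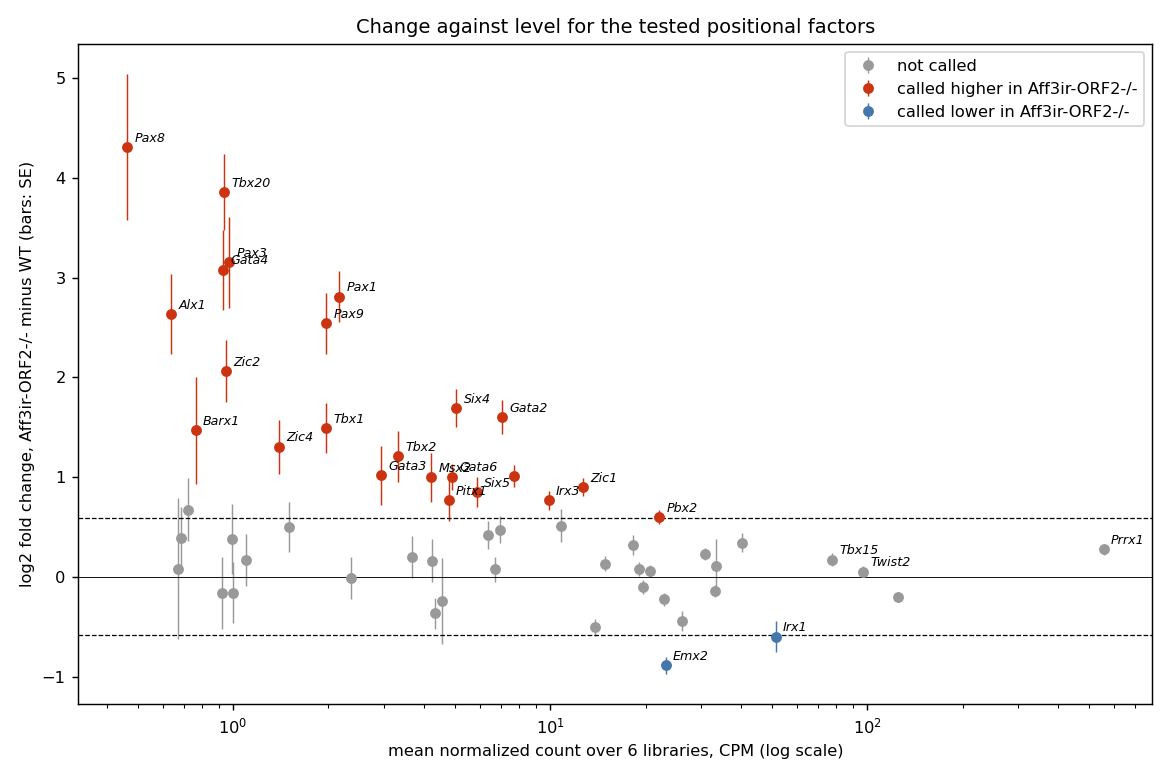
Log2 fold change (*Aff3ir-ORF2-/-* minus WT, bars of 1 SE) against mean level (CPM, log axis) for the 58 tested factors, with dashed lines at a 1.5-fold change. Called factors over 10 CPM are *Pbx2*, *Zic1*, *Emx2* and *Irx1*, and the log2 fold changes over 2 belong to factors with low counts.

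Apart from *Zic1*, the factors of somites, trunk and kidney were low in WT MEFs, and 5 of the 6 tested were called higher in KO MEFs, beside 14.2% of all tested genes. Of these, *Pax1*, *Pax3*, *Pax8* and *Zic2* passed the count filter only through the KO libraries, in which they are high, so the share of the group is no measure of it, and 4 further factors had too few counts to test. *Pax1* (gene ID 18503), a paired box factor of the sclerotome, the vertebra-forming part of the somite, had 11, 7 and 10 counts in WT against 67, 60 and 82 in KO. The genotypes were far apart, with a log2FC of 2.81 (SE 0.26, adjusted p = 1.87e-05). *Pax9*, its paralog in sclerotome, pharyngeal pouches and teeth, which was listed with the head factors, was counted 5, 13 and 12 times in WT and 48, 67 and 71 times in KO libraries (log2FC 2.54, SE 0.31, adjusted p = 1.04e-04). Both paralogs were higher in each KO library. *Pax3*, which acts in the muscle- and skin-forming part of the somite and in neural crest, went from 1, 4 and 5 to 29, 44 and 24 counts (log2FC 3.15, SE 0.46, adjusted p = 2.96e-04). *Pax8*, a factor of thyroid and kidney, had 0, 0 and 2 counts in WT and 22, 14 and 13 in KO libraries. WT was at the detection floor of 3 counts a library, and the summed counts were 2 and 49, a KO to WT ratio of 23.2 after scaling to library size (95% Clopper-Pearson interval 6.09 to 197, counting error only). The fitted log2FC of *Pax8*, 4.31 (SE 0.73, adjusted p = 8.10e-04), was 7.01 without WT replicate 3, so its size is not determined by these counts. The 4 tested *Pax* genes all passed the count filter only through the KO libraries, so that a higher level there favoured their being tested. That all 4 were called higher is thus no measure of the family. The other 4, *Pax2*, *Pax5*, *Pax6* and *Pax7*, had 3 counts or fewer in every library.

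The *Zic* zinc finger factors, which act in the dorsal neural tube and somites, held 3 factors called higher. *Zic1* (gene ID 22771) had 162, 152 and 151 counts in WT against 282, 303 and 330 in KO. Its levels were tight within each genotype, at 8.89 ± 0.433 and 16.6 ± 1.28 CPM (SD, n = 3), a log2FC of 0.90 (SE 0.09, adjusted p = 3.64e-05). *Zic4* was counted 13, 15 and 14 times in WT and 28, 46 and 36 times in KO libraries (log2FC 1.30, SE 0.27, adjusted p = 0.0024), and *Zic2* 7, 5 and 7 times against 25, 26 and 34 (2.06, SE 0.31, adjusted p = 3.96e-04). Both were above WT in all 3 KO libraries. *Zic5* was untested, at 1, 2 and 0 against 6, 5 and 4 counts, a scaled ratio of 4.74 (95% interval 1.34 to 25.5). Neural markers did not move together: of the 7 tested, 2 were higher and 3 lower. The summed level was 170 to 176 CPM in WT and 182 to 236.5 CPM in KO libraries. Most of that sum was Nes, at 116 to 123 CPM in WT and 153 to 206 CPM in KO. *Tubb3*, the next largest, went the other way, from 30.8 to 34.9 CPM in WT to 14.2 to 20.5 CPM in KO. *Dcx*, *Elavl3* and *Snap25* had at most 2 counts in any library. Higher were Nes, an intermediate filament of neural and other progenitors, at 2121, 2036 and 2095 against 3762, 2849 and 3772 counts (log2FC 0.66, adjusted p = 0.00268), and *Sox10*, a neural crest factor, at 7, 12 and 16 against 24, 18 and 41 counts (1.16, adjusted p = 0.0322). Lower were *Tubb3*, *Map2* and *Elavl4*, which mark neurons. The part of such cells in the levels of the *Zic* factors was not tested. Of 10 skeletal muscle markers, 7 were in the table and *Des* alone was higher among the 3 tested, with a summed level of 14.3 to 15.9 CPM in WT and 42.6 to 60.8 CPM in KO libraries, and *Myf5* and *Pax7*, the early muscle factors, had at most 1 count.

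Of the factors of heart, viscera and lateral mesoderm, 3 of the 5 tested were higher, beside 14.2% of all tested genes and 34.2% of those under 2 CPM. *Gata4* and *Tbx20* passed the count filter only through the KO libraries. *Tbx20* (gene ID 57246), a T-box factor of the heart, had 2, 1 and 3 counts in WT against 35, 32 and 30 in KO. WT was at the floor, and the summed counts were 6 and 97, a ratio of 15.3 after the same scaling (95% interval 6.79 to 42.8, log2FC 3.86, SE 0.38, adjusted p = 2.94e-05). *Gata4*, a zinc finger factor of heart and visceral mesoderm, was counted 4, 5 and 1 times in WT and 26, 32 and 34 times in KO libraries (3.08, SE 0.40, adjusted p = 1.62e-04). *Gata6*, which acts with it, was counted 58, 60 and 53 times against 125, 116 and 121 times (1.00, SE 0.13, adjusted p = 1.58e-04). These 3 were higher in each KO library than in any WT library. *Tcf21*, a factor of visceral mesenchyme, was untested, at 2, 1 and 0 against 9, 6 and 10 counts, a scaled ratio of 7.90 (95% interval 2.41 to 40.9). *Osr1*, an early factor of lateral and intermediate mesoderm, had 267, 265 and 319 counts in WT against 355, 347 and 418, which is under 1.5-fold (log2FC 0.32, SE 0.10, adjusted p = 0.0236). *Hand2*, a factor of heart, limb and branchial arches, overlapped, at 60, 49 and 70 against 91, 62 and 64 counts (0.20, adjusted p = 0.435). Of the 8 markers of heart muscle cells, *Tnnt2*, the single one tested, was higher, at 28, 31 and 31 against 60, 47 and 39 counts (log2FC 0.62, adjusted p = 0.0348), and *Myh6* was at 0 in all WT libraries and at 11, 5 and 3 counts in KO. *Nkx2-5*, *Myh7* and *Actn2* had at most 2 counts in any library. The 8 summed to 2.32 to 2.73 CPM in WT and 3.27 to 4.34 CPM in KO libraries, and their part in the levels of *Gata4* and *Tbx20* was not tested.

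**Figure D4:**
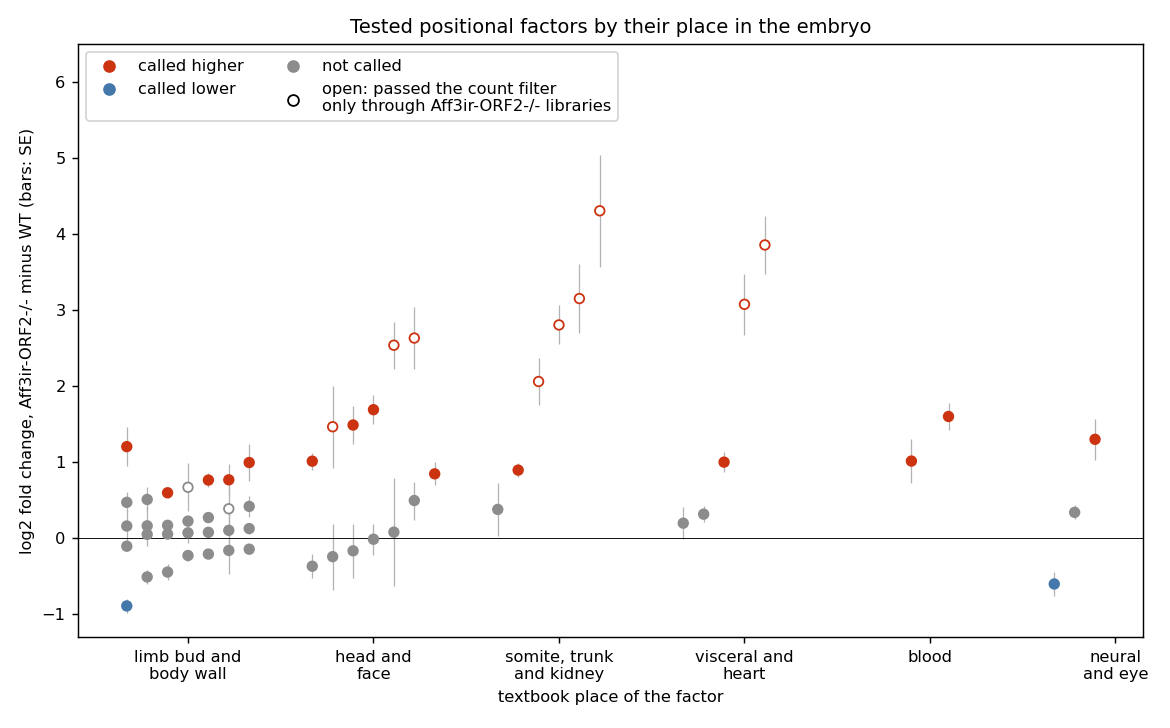
Log2 fold change (*Aff3ir-ORF2-/-* minus WT, bars of 1 SE) of the tested factors, grouped by the textbook place of the factor, with called factors in colour and open symbols for the 11 that passed the count filter only through *Aff3ir-ORF2-/-* libraries. The 8 factors over a log2 fold change of 2 are all open symbols.

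The head and face group had 7 higher factors among 13 tested, and none lower, where 14.2% and 7.27% of all tested genes were, and 28.9% were higher at 2 to 10 CPM and 34.2% below. Of the 7, 3, *Alx1*, *Barx1* and *Pax9*, passed the count filter only through the KO libraries. *Six4*, a homeodomain factor of sensory placodes, muscle and kidney, had 28, 52 and 45 counts in WT against 136, 150 and 141 in KO. The genotypes were well separate, with a log2FC of 1.69 (SE 0.19, adjusted p = 5.79e-05). *Six5* was also higher, at 78, 71 and 70 against 127, 167 and 123 counts (0.85, adjusted p = 0.00102), while *Six2*, a factor of kidney progenitors and face, was at 17, 25 and 23 against 28, 30 and 39 counts and did not pass (0.50, SE 0.25, adjusted p = 0.115). *Tbx1*, a T-box factor of the pharyngeal arches, went from 16, 18 and 20 to 40, 66 and 55 counts (1.49, SE 0.25, adjusted p = 6.89e-04). *Alx1*, a paired-type factor of facial mesenchyme, went from 4, 3 and 2 to 21, 24 and 16 counts (2.63, SE 0.40, adjusted p = 4.26e-04). Its relative *Alx4* was under 1.5-fold, with 99, 111 and 94 against 138, 173 and 135 counts (0.47, adjusted p = 0.0122). *Barx1*, a factor of jaw and stomach mesenchyme, was at 10, 7 and 4 against 12, 14 and 36 counts. It rested on KO replicate 3: its log2FC of 1.47 (SE 0.54, adjusted p = 0.0415) was 0.80 without that library (adjusted p = 0.16), and its call was also lost without WT replicate 1 (adjusted p = 0.0559), 2 (0.11) or 3 (0.14) and with DESeq2 (0.0517).

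*Gata2* and *Gata3*, known from blood development and from several epithelia and neurons, were both higher. *Gata2* (gene ID 14461) had 64, 58 and 61 counts in WT against 213, 151 and 223 in KO, and each of the latter was above all WT libraries (log2FC 1.60, SE 0.17, adjusted p = 4.86e-05). *Gata3* was counted 46, 26 and 29 times in WT and 96, 52 and 68 times in KO libraries. The ranges of *Gata3* came close without overlapping, and its log2FC of 1.02 (SE 0.29, adjusted p = 0.0154) lost the call without WT replicate 2 (adjusted p = 0.0665), without WT replicate 3 (0.0667) or without KO replicate 1 (0.0543). Of 8 T cell markers 3 were in the table, with a summed level of 0.985 to 1.20 CPM in WT and 0.878 to 1.45 CPM in KO libraries. Of 10 mast and erythroid markers 7 were in the table and none could be tested, at 0.284 to 0.572 and 0.697 to 1.21 CPM. The summed endothelial markers were at 172 to 180 CPM in WT and 97.0 to 129 CPM in KO libraries. Most of that sum was *Flt1*, at 164 to 171 CPM in WT and 75.7 to 113 CPM in KO, so it says little of the others. Of the 6 tested, 3 were higher (*Kdr*, *Vwf* and *Erg*) and 2 lower (*Flt1* and *Cdh5*). The epithelial markers summed to 22.2 to 23.0 CPM in WT and 12.7 to 25.4 CPM in KO libraries, with neither of the 2 tested called. Among the untested ones, Epcam had 3, 2 and 4 counts in WT and 1, 0 and 0 in KO, while *Cldn4* had 1, 1 and 0 against 16, 6 and 21. The macrophage markers given above were higher in the same libraries, and their part in the levels of *Gata2* and *Gata3* was not tested.

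Factors that lie next to each other on a chromosome did not always move alike. With no other protein-coding gene between them in RefSeq's order, 9 pairs of factors were found, and another, *Tbx5* and *Lhx5*, had 1 gene between. *Zic1* and *Zic4*, on chromosome 9, were both called higher. In the Iroquois pair of chromosome 13, *Irx1* was lower while *Irx2* had 648, 636 and 571 counts against 919, 839 and 724, or 35.5 ± 2.52 and 45.0 ± 5.50 CPM (SD, n = 3), a log2FC of 0.34 (SE 0.09, adjusted p = 0.0112), so that these neighbours had opposite signs. In the pair of chromosome 8, *Irx3* rose from 125, 136 and 122 to 236, 231 and 221 counts (0.77, SE 0.09, adjusted p = 1.03e-04), while *Irx5* was at 110, 107 and 126 against 111, 130 and 140 counts (0.07, adjusted p = 0.651). On chromosome 11, *Tbx2* was called higher and *Tbx4* was not, though both were above WT in every KO library (log2FC 1.21 and 0.42). On chromosome 5, neither *Tbx3* nor *Tbx5* was called. Differences between the factors of a pair were not tested. Among the 9 factors grouped under brain and eye only *Irx1*, *Irx2* and *Zic4* could be tested, and the others, such as *Pax6*, the master factor of the eye, had at most 6 counts in any library.

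Some factors varied widely among the KO libraries. Of the 40 tested factors with a mean of at least 2 CPM, 9 had a highest library over 1.5 times the lowest among the KO libraries, where 8.32% of all tested genes at that level did. Among the WT libraries it was 6 of the 40, where 3.03% of all tested genes did. Of the 9, replicate 2 was the lowest KO library for 7, and replicate 3 the highest for 5. *Dlx2*, a homeodomain factor of the jaw, had 93, 81 and 85 counts in WT and 97, 28 and 106 in KO libraries. Replicate 2 alone was far below WT, and the log2FC of -0.24 (SE 0.43, adjusted p = 0.662) was 0.16 without it. Its neighbour *Dlx1* had 12, 13 and 9 counts in WT and 4, 5 and 29 in KO libraries. Here replicates 1 and 2 were below WT and replicate 3 above it, and the log2FC of 0.08 (SE 0.71, adjusted p = 0.928) was -1.39 without replicate 3 (adjusted p = 0.0312). *Prrx2* had 578, 559 and 541 counts in WT and 609, 418 and 877 in KO libraries, with WT between the extremes (0.11, SE 0.27, adjusted p = 0.762). *Lhx9*, a LIM homeodomain factor of the limb and gonad, had 154, 143 and 169 counts in WT and 247, 177 and 277 in KO libraries, and its log2FC of 0.51 (adjusted p = 0.0266) became 0.68 without replicate 2 (adjusted p = 4.55e-05), past the fold threshold. *Osr2*, a zinc finger factor of limb joints and palate, was low and not called, at 11, 9 and 11 against 12, 16 and 15 counts (0.39, SE 0.31, adjusted p = 0.311). *Lhx2*, the relative of *Lhx9* in limb and eye, had 23, 19 and 13 against 20, 18 and 14 counts and overlapped (-0.16, SE 0.30, adjusted p = 0.679).

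**Figure D5:**
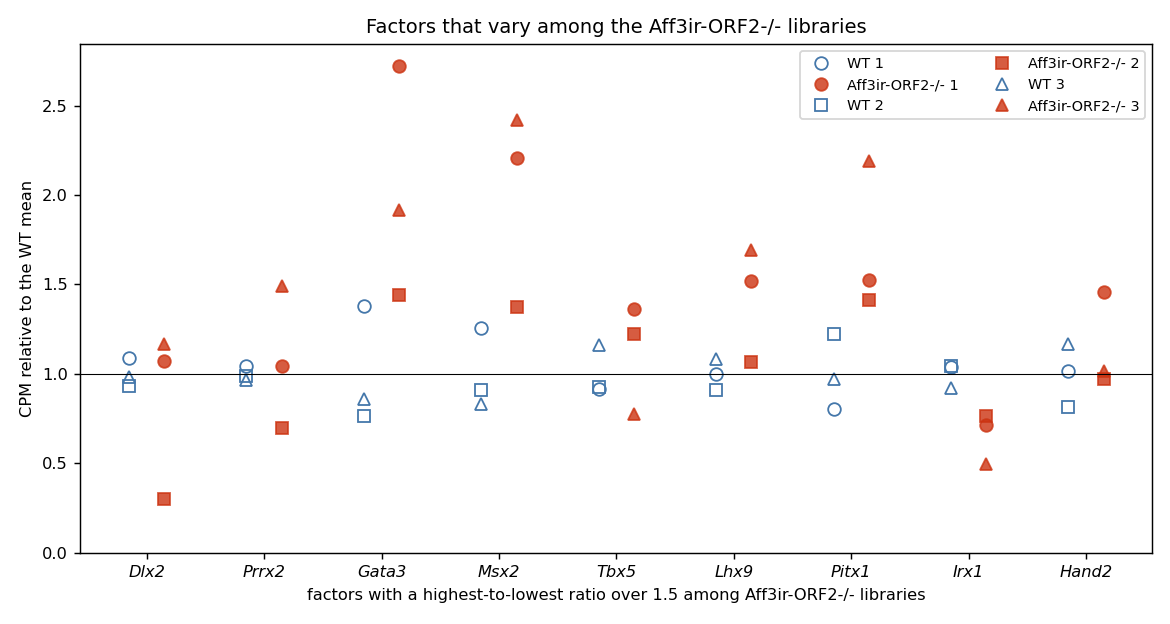
Level of the 9 factors with a ratio over 1.5 between the highest and lowest *Aff3ir-ORF2-/-* library, as CPM relative to the WT mean, for each WT library (open) and each *Aff3ir-ORF2-/-* library (filled), with the shape giving the replicate number. Replicate 2 (squares) is the lowest *Aff3ir-ORF2-/-* library for 7 of the 9.

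Genes that act with the positional factors were read from 3 lists. Of the signals that set up or read out positional fields, 10 of 16 tested were higher and 3 lower, where the shares over all tested genes were 14.2% and 7.27%. *Grem1*, the BMP antagonist of the limb bud, was counted 4348, 4549 and 4481 times in WT and 10218, 10498 and 10712 times in KO libraries. Its libraries were tight within each genotype and far apart between them (log2FC 1.15, SE 0.04, adjusted p = 1.80e-07). *Fgf10*, the growth factor of limb and lung outgrowth, went from 6.54 ± 1.32 to 34.3 ± 2.96 CPM (SD, n = 3), a log2FC of 2.39 (SE 0.13, adjusted p = 2.02e-06). Of the enzymes that make retinoic acid 2 were higher and 1 lower: *Aldh1a1* rose from 0.21 ± 0.133 to 11.6 ± 2.56 CPM (log2FC 5.75, SE 0.33, adjusted p = 2.00e-06), *Aldh1a2* went from 36, 34 and 36 to 57, 66 and 51 counts (0.63, SE 0.18, adjusted p = 0.0129), and *Aldh1a3* fell from 4.53 ± 0.537 to 1.23 ± 0.0449 CPM (-1.87, SE 0.18, adjusted p = 2.80e-05). *Aldh1a1* is also expressed by cells other than fibroblasts, and its source was not tested. *Gli3*, the Hedgehog-controlled repressor, and *Wnt5a*, a ligand of limb outgrowth, were lower (-0.74 and -0.63, adjusted p = 1.82e-05 and 5.43e-06). The Hedgehog receptor *Ptch1* was higher (0.73, adjusted p = 7.51e-05), while *Shh* had at most 4 counts and *Gli1* at most 3 in any library.

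Of the cofactors, 4 of 25 tested were higher and 3 lower, near the 14.2% and 7.27% of all tested genes, with a median log2FC of -0.13. *Eya1*, a coactivator that binds *Six4* and its relatives, went from 93, 97 and 85 to 181, 156 and 188 counts (0.85, SE 0.12, adjusted p = 2.88e-04), above WT in each library, as *Six4* was. *Dach1* and *Dach2*, which act in the same network, moved apart, with log2FCs of 1.25 (SE 0.23, adjusted p = 0.00134) and -1.49 (SE 0.25, adjusted p = 8.95e-04). *Lmo2*, a LIM-only protein of blood and endothelial cells, had counts of 0, 1 and 1 in WT against 68, 114 and 100 in KO libraries, the libraries in which macrophage markers were also higher. *Ldb2*, a partner of LIM proteins, was lower (-1.08, SE 0.20, adjusted p = 0.00149). The general partners of basic helix-loop-helix factors, *Tcf3*, *Tcf4* and *Tcf12*, were not called, with log2FCs of -0.39, -0.13 and -0.35. Of 37 other positional genes in the table, 26 were tested, with 9 higher and 1 lower, beside the same shares of all tested genes. *Foxc1*, a forkhead factor of paraxial and head mesoderm, rose from 5.04 ± 0.728 to 19.1 ± 0.745 CPM (SD, n = 3), a log2FC of 1.92 (SE 0.11, adjusted p = 1.66e-06), and *Foxd1*, a factor of kidney stroma, from 0.821 ± 0.211 to 5.31 ± 1.32 CPM (2.68, SE 0.27, adjusted p = 2.97e-05). *Nkx3-2*, a sclerotome and cartilage factor that acts downstream of *Pax1* and *Pax9* in the embryo, had counts of 2, 2 and 1 in WT against 14, 14 and 18 in KO libraries (3.03, SE 0.47, adjusted p = 4.25e-04). WT was at the floor for *Nkx3-2*, which passed the count filter only through the KO libraries, and the size of its change rests on few counts. *Ebf1*, the only one that was lower, fell from 63.6 ± 0.934 to 29.3 ± 1.16 CPM (-1.12, SE 0.05, adjusted p = 8.33e-07).

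For 12 of the 78 factors RefSeq names a gene on the opposite strand, among them the called factors *Emx2*, *Gata6* and *Irx3*. None of those opposite-strand genes is a row of the table, and the sources used here do not state whether counting used strand, so reads of such a pair cannot be told apart. How reads shared by close paralogs, such as those of the *Tbx*, *Pax*, *Zic* and *Irx* families, were assigned is not given in the sources used here either.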

How the data were processed

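RNA of MEFs (3 WT and 3 *Aff3ir-ORF2-/-* libraries) was sequenced as paired-end reads on a DNBSEQ instrument and filtered with SOAPnuke by a sequencing company. The authors deposited a table of estimated counts, 1 row a gene, with no normalization. The aligner, counting tool and annotation are not given in the sources used here, and the submitters' processing notes name the build mm8. Between 10.64% and 11.29% of values were not whole, and all were rounded. Total counts were 17435133 to 18252330 per library, and intervals cover counting error only. Genes passing filterByExpr (minimum count 10, minimum total 15) were tested with edgeR 4.0.16 (quasi-likelihood, robust, TMM, no covariates) in R 4.3.3, with Benjamini-Hochberg adjustment over 13075 genes. An SE is the size of the log2FC divided by the root of F. Of the table's gene IDs, 17043 were found in RefSeq's GRCm38.p6 gene table, used for gene order only. Lengths are those of the longest GENCODE M21 transcript of a symbol, found for all 78 factors.

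The factors and gene lists were chosen with earlier results of these data known. Values per library are given for called factors, for the most counted of each family, for factors at the floor in 1 genotype and for a fixed set of limb and body wall factors. Of each partner list only some genes are named. Others, such as *Pbx4* or *Irx5*, were named after their values were seen. Some factors are included in the counts but not reported by name here. Alternatives were other scalings, filters and thresholds, DESeq2 1.42.0, limma 3.58.1 voom, a replicate block and leaving out each library. The functions were tested on simulated data. Python 3.11.15 and matplotlib 3.10.9 drew the figures.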

Additional observations from a re-analysis of the deposited data

How the results depend on the processing

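Of the 25 called factors, 20 kept their direction and their call under all the scalings, filters, tools and left-out libraries that gave them a value. *Barx1*, *Gata3*, *Irx1*, *Pbx2* and *Pitx1* lost theirs somewhere. The number of higher factors, 23, was 14 when each library had to hold 10 counts or more, which removes factors that are low in WT, and the median log2 fold change of the factors was then 0.22. It was 20 to 24 with a library left out, and the median then 0.32 to 0.49. The number of lower factors, 2, was 1 with upper quartile scaling, 1 with total counts only, 1 in the test against a 1.5-fold change, 0 with a 2-fold change and 6 by adjusted p alone. It was 1 or 2 with a library left out. The 23 higher and 7 lower genes of the 3 lists of partners were 12 and 4 with a 2-fold change, 10 and 4 in the test against a 1.5-fold change, and 18 were lower by adjusted p alone.

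The named factors whose sign changed were not called. *Dlx1* was at -0.46 with limma voom and -0.011 with the replicate block, and between -1.39 and 0.49 with a library left out. With a library left out *Dlx2* ranged from -0.54 to 0.16, *Hand2* from -0.011 to 0.33, *Lhx2* from -0.36 to 0.047, *Prrx2* from -0.20 to 0.34 and *Tbx5* from -0.0034 to 0.37. With the replicate number as a block, 23 factors were higher and 2 lower, as without it. Deviations of same-numbered libraries correlated at 0.0386, 0.0424 and 0.0145 across genes, and every library correlated best with its own number, a hint from the data and not from the design; the labels do not say that numbers pair the libraries. The 20 untested factors all had 11 counts or fewer, and whether depth or a lack of expression set this was not tested.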
